A study of Homo sapiens with 60 samples.

Results

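The mRNA levels of 10 genes of lipoprotein assembly and transport were followed in HepG2 cells treated with herbal water extracts. The genes were the apolipoproteins APOA1, APOA2, APOA4, APOB, APOC1, APOC3, APOE, APOH and APOM and the transfer protein gene MTTP, and were taken by gene symbol. All 10 were among the 60675 genes of the count table, and all 10 passed the filter on low counts that left 16644 genes for testing. HepG2 is an established human hepatocellular carcinoma line that still makes and secretes lipoproteins. The series holds 60 RNA-seq libraries of these cells collected 24 h after treatment. The vehicle group (n = 3) received 0.1% DMSO according to the sample labels, whereas the text of the series gives 2%. The sample labels do not say whether the extract groups received DMSO, so differences from vehicle may include the solvent, which was not tested. Menthae Herba and Saposhnikoviae Radix are single herbs. Saengmaek-san and Guibi-tang, and likewise Soyo-san with Okbyeongpung-san, are formulas of several herbs. Each was given as a water extract at 20, 100 or 500 µg/mL (n = 3 for each dose). A further formula, Soshiho-tang, has a single library at each of these doses and enters no test. By their usual recipes Soyo-san contains Menthae Herba and Okbyeongpung-san contains Saposhnikoviae Radix, although the labels do not list ingredients. All groups share 1 cell line, and nothing in the labels says whether replicates came from separate cultures. The p-values therefore reflect the spread among these libraries, which may be technical.

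Liver cells package triglyceride and cholesterol ester around a single large protein, APOB, with the help of microsomal triglyceride transfer protein (MTTP), and secrete the product as very low density lipoprotein. A second pathway builds high density lipoprotein (HDL) around APOA1 and APOA2, with APOM as a lipid-carrying passenger. The smaller exchangeable apolipoproteins move between particles and tune their fate: APOC1 and APOC3 slow clearance, APOE is the ligand for uptake by receptors, and APOA4 joins newly made particles. APOH, also called beta-2-glycoprotein I, is a plasma protein that binds anionic phospholipids.

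The libraries held 20446542 to 32386486 expected counts each (median 25862356). Levels are given as CPM, counts brought to a common library total, after scaling by edgeR's trimmed mean of M values, and 3 counts in the smallest library correspond to 0.147 CPM. The label of the cells was checked against 8 hepatocyte markers, ALB, AFP, TTR, SERPINA1, TF, FGB, AHSG and HNF4A. All 8 had a median of at least 1 CPM, and their summed level lay between 19330 and 24970 CPM. Of the markers of other cell types, 1 of 8 fibroblast genes (PDGFRB), 3 of 7 leukocyte genes (LYZ, CD68 and CD14) and 1 of 5 endothelial genes (PECAM1) had such a median. The defining fibroblast genes COL1A2, DCN, LUM and PDGFRA, the leukocyte genes PTPRC and CD3E and the endothelial genes KDR and TEK stayed under 0.15 CPM in all 60 libraries.

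The libraries also differed in composition, within groups and in part along them. How far these differences contribute to the levels of the short apolipoprotein transcripts was not tested. For each library a balance was taken from the log2 deviations of protein-coding genes, the 10 members left out. The mean of genes with over 8000 bases of exon was subtracted from that of 574 genes with under 2000 bases. A negative balance means that short mRNAs stood lower relative to long mRNAs than on average over the libraries. This measure was chosen after the data were seen. It ran from -0.17 to -0.03 in Menthae Herba at 500 µg/mL and from 0.07 to 0.11 at 20 µg/mL, so these groups did not overlap in it. The lowest values of all were -0.29 in replicate 3 of Okbyeongpung-san at 100 µg/mL, -0.27 in replicate 1 of Saengmaek-san at 500 µg/mL and -0.26 in replicate 3 of Okbyeongpung-san at 20 µg/mL. A separate split by the nuclear RNA MALAT1 placed 31 libraries between 174.5 and 282.4 CPM and 29 between 386.8 and 552.2 CPM. The lower class took every library of vehicle and of both single herbs. The higher class took every library of Soyo-san, Okbyeongpung-san and Soshiho-tang, and Saengmaek-san and Guibi-tang had libraries in both. Differences of Soyo-san and Okbyeongpung-san from vehicle therefore cannot be told apart from the class except through a model that estimates the class effect in Saengmaek-san and Guibi-tang.

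Within groups, the levels of 9 of the 10 genes varied with the balance of short and long genes, and APOA4 did so more weakly. The balance is itself built from short and long genes, and the relation was not computed for genes outside the 10. Nothing is therefore read from it as particular to these genes. Over the deviations of 57 libraries from their group means, Pearson's r was 0.88 for APOC1, 0.82 for APOC3, 0.80 for APOM, 0.74 for APOA2, 0.73 for APOH, 0.73 for APOE and 0.71 for APOA1. Spearman's rho for the same genes was 0.84, 0.80, 0.76, 0.66, 0.64, 0.71 and 0.75. The long mRNAs of APOB (r = -0.76, rho = -0.84) and MTTP (r = -0.53, rho = -0.54) went the other way. Permuting libraries within groups 100000 times gave adjusted p-values, by Benjamini-Hochberg over the 10 genes, of at most 0.00047 for r and 0.00043 for rho for these 9 genes. The faint APOA4 had r = 0.37 and rho = 0.34 (permutation test, adjusted p = 0.039 and 0.044). Without the 2 libraries farthest from the median, r stayed between 0.65 and 0.85 for the 7 short mRNAs, and was -0.76 for APOB, -0.46 for MTTP and 0.34 for APOA4. Within the libraries that share the first number of their sample code (5, 6 or 7), r for the 7 short mRNAs lay between 0.42 (APOE, code 5) and 0.96 (APOC1, code 7). It was between -0.95 and -0.68 for APOB, while MTTP had -0.10 in code 5 and APOA4 had -0.17 in code 7. The dose differences of the 10 genes were therefore also fitted with the balance as a covariate. In Soyo-san this gave 0.24 for MTTP, 0.52 for APOM and -0.33 for APOH, and in Guibi-tang -0.22 for MTTP and -0.36 for APOH, all still called. In Menthae Herba APOA4 had -0.44 and was still called, and the values of the other members called in that extract stand with each gene. The balance did not overlap between 20 and 500 µg/mL of Menthae Herba. For that extract the fit with the balance therefore cannot tell balance and dose apart.

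**Figure D1:**
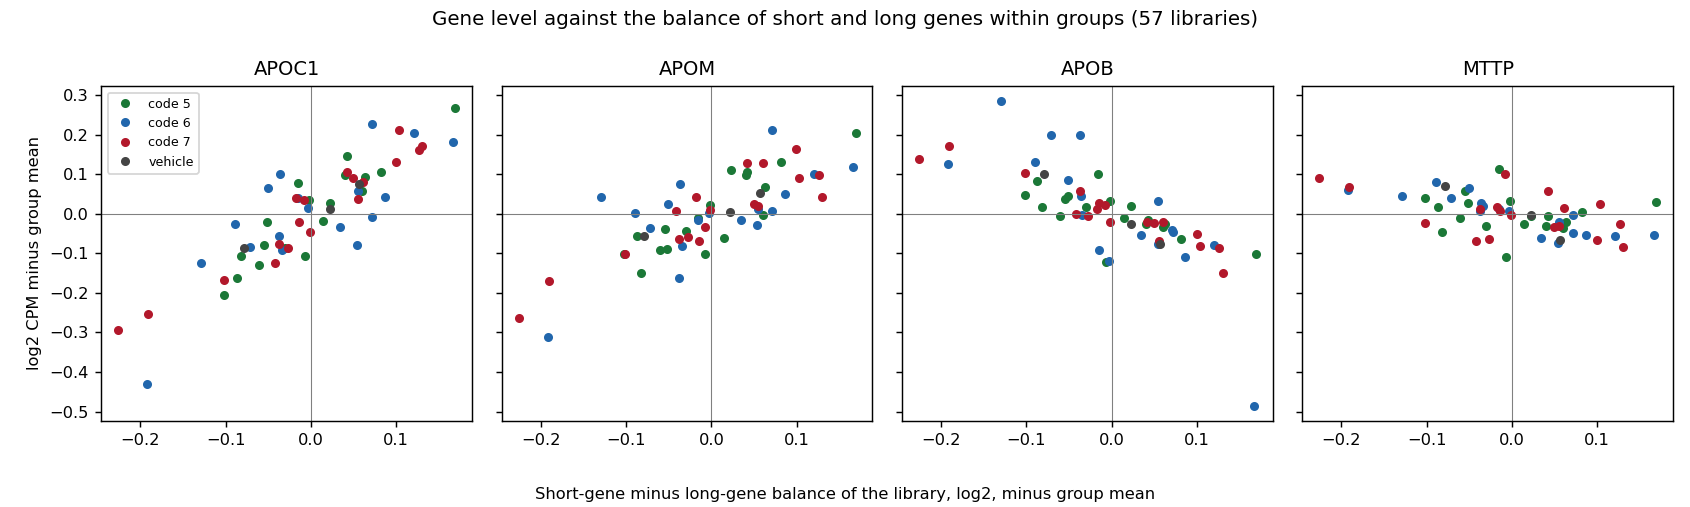
Level of APOC1, APOM, APOB and MTTP in each of the 57 replicated libraries (log2 CPM minus the group mean) against the balance of short and long genes in that library (log2, minus the group mean), coloured by the first number of the sample code. APOC1 and APOM rise along the axis (r = 0.88 and 0.80), and APOB and MTTP fall (r = -0.76 and -0.53).

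Levels between genes are compared per length, in vehicle. APOA2 reached 1941 ± 88.9 CPM per kilobase of exon (SD, n = 3) and APOB 1873 ± 119 CPM per kilobase, and their libraries overlapped. APOA1 (784 ± 102 CPM per kilobase) and APOH (768 ± 40.2 CPM per kilobase) formed the next level and also overlapped. APOE followed at 316 ± 21.5 CPM per kilobase. APOC1 (61.3 ± 3.47 CPM per kilobase) and APOC3 (60.2 ± 2.68 CPM per kilobase) could not be ordered, whereas APOM (31.96 ± 1.21), MTTP (12.98 ± 0.617) and APOA4 (1.57 ± 0.171 CPM per kilobase) were each separated from their neighbours. With mean transcript length in place of the exon union, APOH (1346 CPM per kilobase) stood above APOA1 (1092 CPM per kilobase) and the other 8 ranks were the same. Unscaled for length, APOB alone took 1.58% to 2.97% of the scaled counts of a library, and the 10 genes together took 2.12% to 3.46%.

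**Figure D2:**
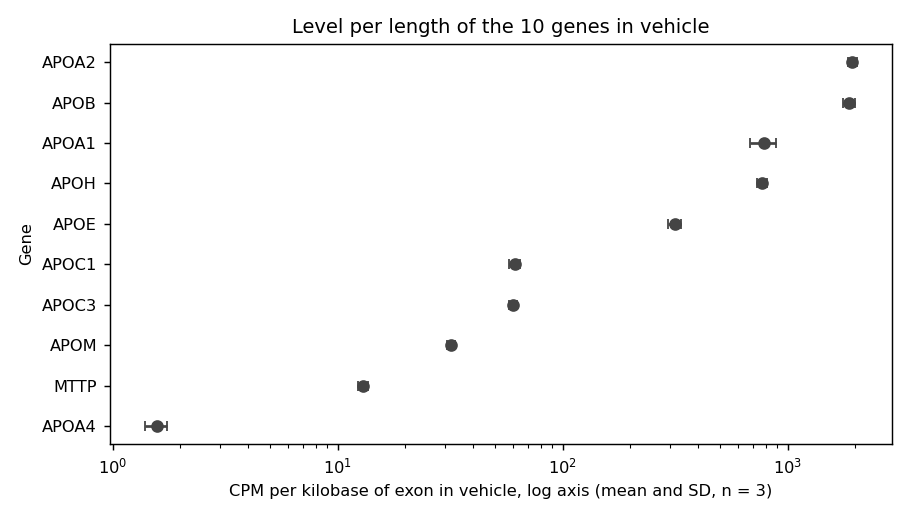
Level of the 10 genes in vehicle in CPM per kilobase of exon on a log axis, as mean and SD of 3 libraries. APOA2 (1941 CPM per kilobase) and APOB (1873) lie at the top and APOA4 (1.57) at the bottom.

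The dose comparison asks which mRNAs changed between 20 and 500 µg/mL of the same extract. The most calls among the 10 genes were in Menthae Herba: 7 passed an adjusted p under 0.05 by edgeR's quasi-likelihood test, where 32.1% of all tested genes did. APOM and MTTP were higher at 500 µg/mL, and APOA1, APOA4, APOC3, APOE and APOH were lower. Soyo-san followed with 3 of 10 (APOM and MTTP higher, APOH lower; 7.58% of all genes) and Guibi-tang with 2 of 10 (APOH and MTTP, both lower; 8.12% of all genes). In Saposhnikoviae Radix (0.397% of all genes), Saengmaek-san (1.96%) and Okbyeongpung-san (0.024%) 0 of 10 were called. At an unadjusted p under 0.05 these extracts had 1, 3 and 2 of the 10, and DESeq2 called 1, 1 and 0. The median log2 difference of the 10 genes was -0.12 in Menthae Herba, -0.08 in Saposhnikoviae Radix, -0.09 in Saengmaek-san, -0.18 in Guibi-tang, -0.04 in Soyo-san and 0.11 in Okbyeongpung-san, and that of all genes lay between -0.006 and -0.0015. In a bulk library, fewer cells that express a gene and less RNA per cell cannot be told apart.

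**Figure D3:**
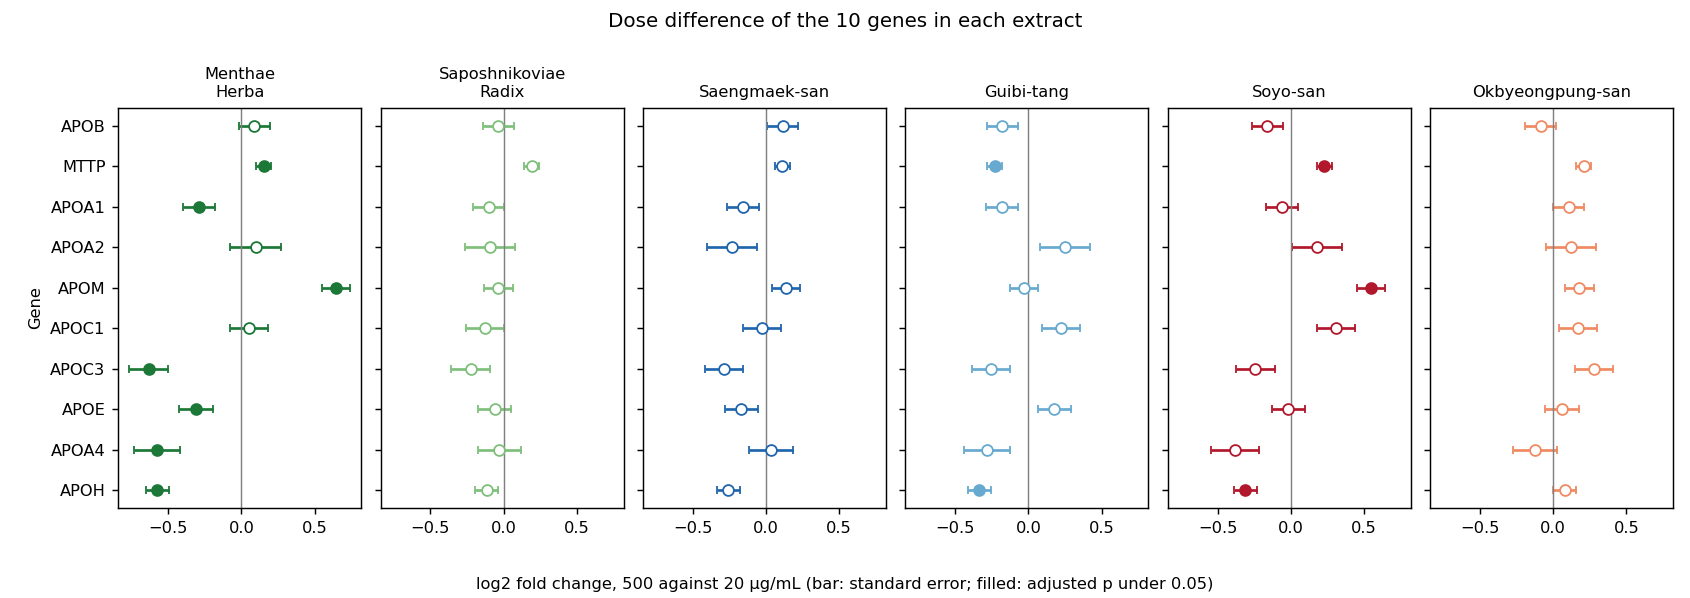
Difference between 500 and 20 µg/mL for the 10 genes in each of 6 extracts, as log2 fold change with its standard error, filled where the adjusted p is under 0.05. APOM is far to the right in Menthae Herba (0.65) and Soyo-san (0.55), and APOH is to the left in Menthae Herba (-0.57), Guibi-tang (-0.34) and Soyo-san (-0.31).

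MTTP, APOM and APOH are the genes that changed in the most comparisons, and the 250 bases before their RefSeq start sites (GRCh38.p14) are shown for orientation. The table holds sequences of 7 of the 10 genes and lists 2 starts for MTTP, of which the second is given; the first holds none of the motifs below. Capitals mark matches, on either strand, to 6 short motifs of liver and core promoters: CAAAGTCCA (HNF4), CAAAGGTCA (nuclear receptors), GTTAATNAT (HNF1) and the shorter GTTAAT that it contains, GTAAACA (FOXO) and TATAAA (the TATA box).
MTTP, chr4:99574574-99574823, plus strand: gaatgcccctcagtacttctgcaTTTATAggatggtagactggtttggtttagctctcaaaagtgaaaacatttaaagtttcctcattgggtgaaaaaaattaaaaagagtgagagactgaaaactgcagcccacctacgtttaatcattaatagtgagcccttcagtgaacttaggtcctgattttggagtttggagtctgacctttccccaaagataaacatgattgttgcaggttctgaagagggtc
APOM, chr6:31655644-31655893, plus strand: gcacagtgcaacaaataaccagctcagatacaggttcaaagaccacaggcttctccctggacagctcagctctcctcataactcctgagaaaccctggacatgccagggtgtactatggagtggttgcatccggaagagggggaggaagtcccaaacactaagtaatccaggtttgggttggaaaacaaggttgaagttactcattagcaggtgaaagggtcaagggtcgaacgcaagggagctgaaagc
APOH, chr17:66229416-66229665, minus strand: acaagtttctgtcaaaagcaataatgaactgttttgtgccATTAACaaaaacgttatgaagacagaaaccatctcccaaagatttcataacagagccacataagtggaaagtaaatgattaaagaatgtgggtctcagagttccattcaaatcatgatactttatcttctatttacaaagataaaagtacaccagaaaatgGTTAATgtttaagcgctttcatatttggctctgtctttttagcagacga
The APOH window holds GTTAAT at 49 bases before the start and, on the other strand, at 210 bases. The MTTP window holds TATAAA on the opposite strand at 227 bases, and the APOM window holds none of the 6. Among 35116 promoter windows of this length, 6.23% hold GTTAAT, 0.723% GTTAATNAT, 10.7% TATAAA, 2.98% GTAAACA, 0.339% CAAAGGTCA and 0.325% CAAAGTCCA. These are letter matches, and no binding was measured.

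The assembly genes are described first. MTTP (chromosome 4, 99563761 to 99623999, plus strand, GENCODE v29 on GRCh38) loads lipid onto nascent APOB in the endoplasmic reticulum. Its vehicle libraries held 73.5, 66.8 and 69.9 CPM. At 500 µg/mL its libraries held 87.9, 89.99 and 91.4 CPM in Menthae Herba, 93.2, 88.4 and 92.4 CPM in Saposhnikoviae Radix and 92.7, 85.5 and 88.8 CPM in Saengmaek-san. They held 97.1, 97.5 and 94.3 CPM in Soyo-san and 90.6, 86.2 and 93.7 CPM in Okbyeongpung-san, so in these 5 extracts every library was above every vehicle library. Guibi-tang at 500 µg/mL held 68.3, 70.2 and 75.2 CPM and overlapped with vehicle. The log2 differences of 500 µg/mL from vehicle were 0.36 ± 0.051 (SE) in Menthae Herba, 0.38 ± 0.051 in Saposhnikoviae Radix, 0.34 ± 0.051 in Saengmaek-san, 0.46 ± 0.051 in Soyo-san and 0.36 ± 0.051 in Okbyeongpung-san, with adjusted p-values between 8.7e-10 and 4.0e-06. Guibi-tang differed from vehicle by 0.02 (adjusted p = 0.822).

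MTTP was higher than vehicle already at the lower doses. At 100 µg/mL it was called in 5 of 6 extracts and at 20 µg/mL in 5 of 6, always higher. Its estimate was above 0 in all 18 comparisons with vehicle, between 0.02 and 0.46, and 15 of them were called. Those 18 comparisons share the same 3 vehicle libraries, and the vehicle mean of 70.1 ± 3.33 CPM was the lowest of all 19 replicated groups. The vehicle libraries alone have sample codes that start with B1, so treatment and code cannot be told apart. The share of counts from mitochondrial genes was 13.02% to 16.4% in the vehicle libraries and 9.04% to 14.3% in the others, with 12.3% to 13.6% in Guibi-tang at 500 µg/mL. Its part in the differences from vehicle was not tested. At 20 µg/mL the group means were 80.8 CPM in Menthae Herba, 80.2 in Saposhnikoviae Radix, 82.4 in Saengmaek-san, 83.7 in Guibi-tang, 82.2 in Soyo-san and 77.9 in Okbyeongpung-san. Leaving out vehicle replicate 2, the lowest of the 3, removed the call at 20 µg/mL in Menthae Herba, Saposhnikoviae Radix and Soyo-san and at 100 µg/mL in Saposhnikoviae Radix and Saengmaek-san, with adjusted p-values up to 0.109. With the MALAT1 class as a covariate all 15 were called, with an adjusted p of at most 0.0486. When only the groups compared entered the fit, the calls at 20 µg/mL of Menthae Herba and Saengmaek-san and at 100 µg/mL of Saengmaek-san were lost.

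The direction of the MTTP dose difference was not shared by all extracts. From 20 to 500 µg/mL MTTP rose in Soyo-san from 82.0, 80.9 and 83.6 CPM (log2 difference 0.23 ± 0.051, adjusted p = 0.00152). In Guibi-tang it fell from 79.4, 87.5 and 84.0 CPM (log2 difference -0.23 ± 0.051, adjusted p = 0.0015). The libraries of both doses were separate in each case. The difference in Menthae Herba was smaller, 0.15 ± 0.051 (adjusted p = 0.016), and was not called without replicate 3 of the 20 µg/mL group, the lowest of that group at 74.7 CPM (adjusted p = 0.145), with the balance covariate (0.09, adjusted p = 0.138), without the filter on low counts, or when only the groups compared entered the fit. In Saposhnikoviae Radix (0.19, adjusted p = 0.0881), Okbyeongpung-san (0.21, adjusted p = 0.184) and Saengmaek-san (0.11, adjusted p = 0.355) the dose groups did not overlap but the difference missed the threshold. With the balance covariate it was called in Okbyeongpung-san (0.24, adjusted p = 0.005). Exons of MTTP overlap the antisense gene AC083902.1 and the neighbour TRMT10A on the opposite strand, and the strand setting of the counting is not stated in the labels.

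APOB (chromosome 2, 21001429 to 21044073, minus strand), the structural protein of very low density lipoprotein, was called in 0 of 24 comparisons by edgeR's test; 4 of them, all against vehicle, had an unadjusted p under 0.05, and DESeq2 called 2. Its vehicle libraries held 29732, 26324 and 27243 CPM. All 18 estimates against vehicle were below 0, from -0.29 to -0.03, with adjusted p-values of 0.0602 at the lowest, and they share the vehicle libraries. At 500 µg/mL the group means ran from 22648 ± 1824 CPM in Guibi-tang to 27286 ± 2120 CPM in Saengmaek-san. One library stood apart, replicate 2 of Guibi-tang at 100 µg/mL, with 15825 CPM beside 25451 and 26974 CPM in the other replicates. That library also had the highest balance of short and long genes of the series (0.2453), whose part in its APOB level was not tested. The dose differences lay between -0.18 in Guibi-tang and 0.11 in Saengmaek-san, with adjusted p-values from 0.386. With the balance covariate APOB was lower than vehicle at 500 µg/mL of Menthae Herba (-0.22, adjusted p = 0.00763), Guibi-tang (-0.20, adjusted p = 0.0398) and Soyo-san (-0.20, adjusted p = 0.0255). Without replicate 3 of Guibi-tang at 500 µg/mL, or replicate 1 or 3 at 100 µg/mL, the comparison of that group with vehicle was called, at -0.36 and -0.43 at the lowest. The fits called at 100 µg/mL keep replicate 2 with its low value, and without replicate 2 the comparison was not called. The gene AC010872.1 overlaps APOB on the opposite strand.

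Of the HDL genes, APOM changed most. APOM (chromosome 6, 31652416 to 31658210, plus strand) is a lipocalin that carries sphingosine-1-phosphate on HDL. Its vehicle libraries held 51.0, 55.0 and 53.2 CPM. In Menthae Herba it held 67.7, 62.2 and 58.4 CPM at 20 µg/mL, 70.1, 75.6 and 65.6 CPM at 100 µg/mL and 95.25, 107.4 and 92.3 CPM at 500 µg/mL. The 500 µg/mL libraries were above all others of the series. The difference from 20 µg/mL was 0.65 ± 0.095 (adjusted p = 4.2e-07) and that from vehicle 0.89 ± 0.097 (adjusted p = 2.6e-10), a 1.85-fold higher level. At 100 µg/mL the difference from vehicle was 0.41 ± 0.097 (adjusted p = 0.00305). With the balance of short and long genes in the edgeR model the APOM dose difference was 0.84 (adjusted p = 1.6e-16). The balance did not overlap between these doses, so that fit cannot tell balance and dose apart.

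APOM was also higher at the high dose of Soyo-san. It held 56.4, 52.2 and 59.6 CPM at 20 µg/mL and 78.6, 84.6 and 83.15 CPM at 500 µg/mL, with no overlap (log2 difference 0.55 ± 0.097, adjusted p = 7.3e-05). Against vehicle the difference at 500 µg/mL was 0.63 ± 0.097 (adjusted p = 3.4e-06), and 0.52 with the MALAT1 class as covariate (adjusted p = 0.000647). In Saengmaek-san, APOM held 55.6, 73.9 and 79.8 CPM at 500 µg/mL, and the low first library is the one with the balance of -0.27. That group was higher than vehicle by 0.39 ± 0.098 (adjusted p = 0.00472), and without replicate 3 by 0.29 (adjusted p = 0.0638); it was also not called when only the groups compared entered the fit (adjusted p = 0.0877). At 100 µg/mL the difference of Saengmaek-san from vehicle, 0.31 (adjusted p = 0.0453), lost its call without any 1 of its 6 libraries (adjusted p up to 0.202), and with the balance it was 0.17 (adjusted p = 0.0947) and with the MALAT1 class 0.28 (adjusted p = 0.0584). Saposhnikoviae Radix (-0.04), Guibi-tang (-0.03) and Okbyeongpung-san (0.18) showed no called dose difference. APOM shares exonic sequence with BAG6 on the opposite strand.

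**Figure D4:**
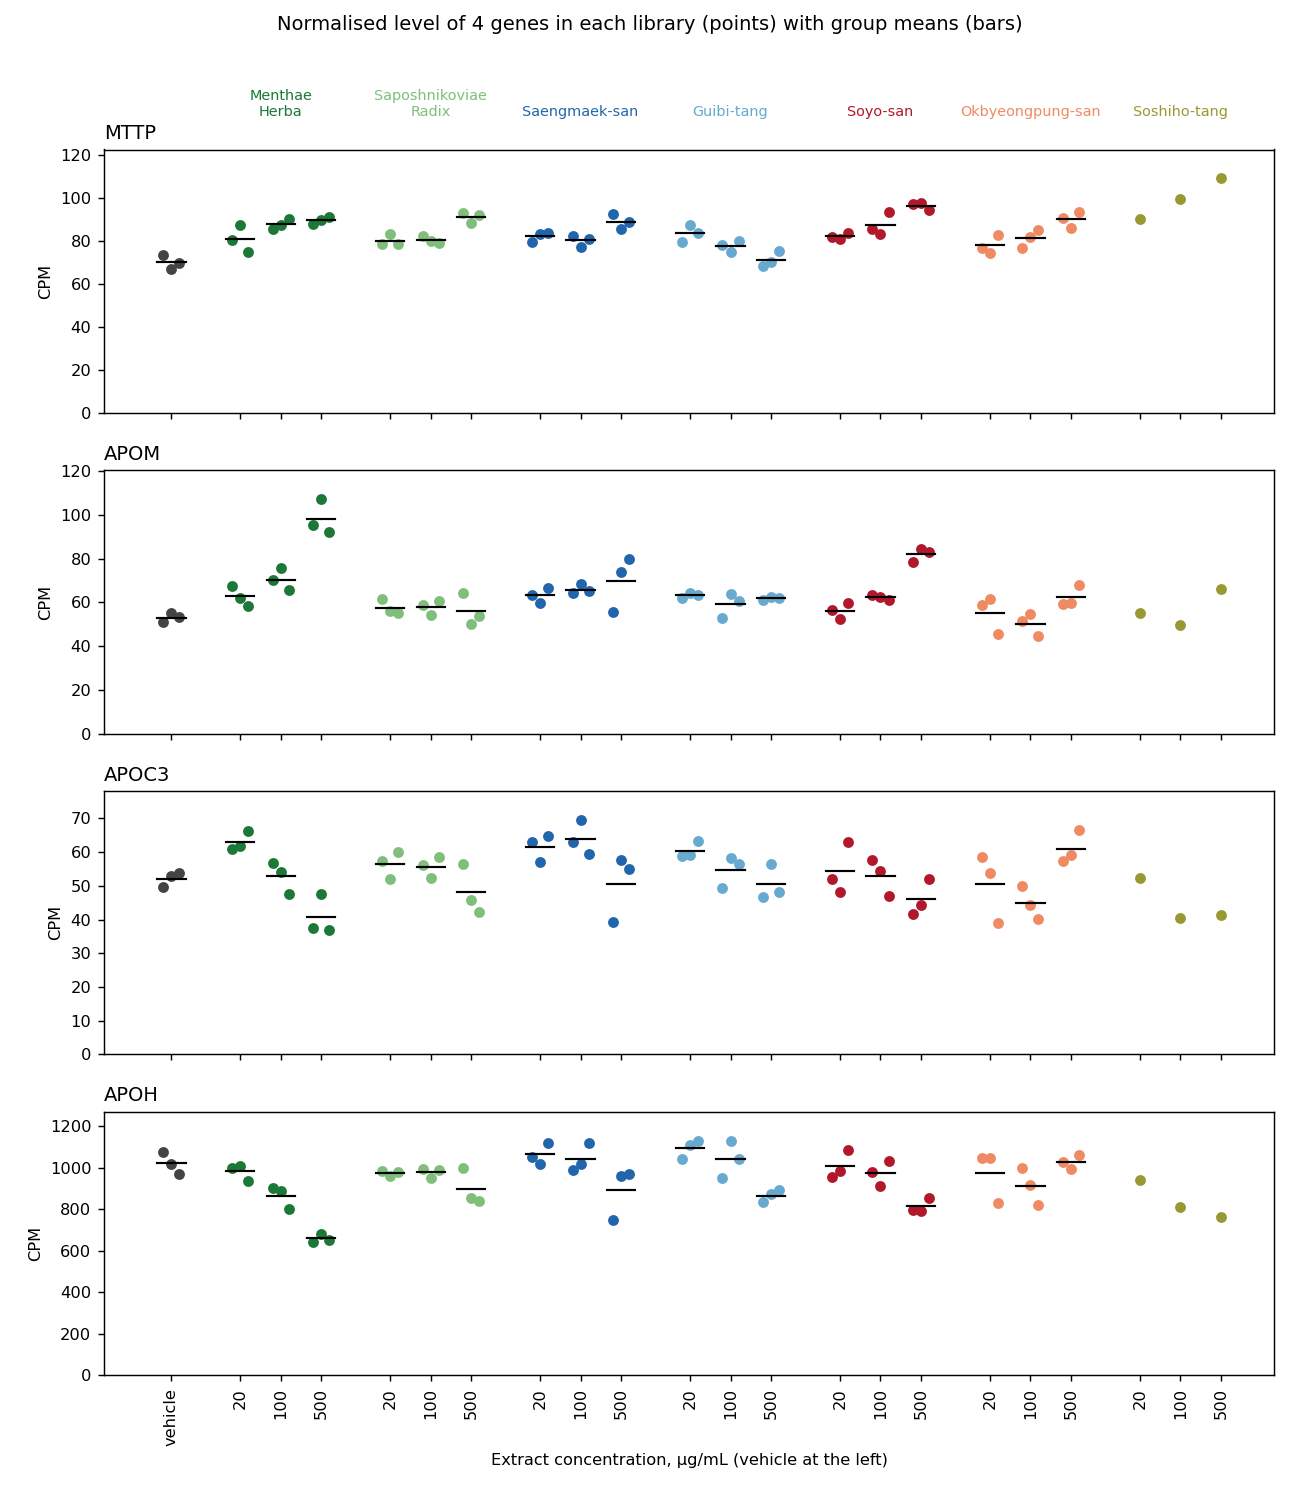
Normalised level (CPM, axes from 0) of MTTP, APOM, APOC3 and APOH in every library, with vehicle at the left, then 20, 100 and 500 µg/mL of each extract; points are libraries and bars are means of 3. APOM in Menthae Herba climbs from 62.8 to 98.3 CPM between 20 and 500 µg/mL while APOH falls from 983 to 660.0 CPM, and MTTP in vehicle (70.1 CPM) lies under nearly all extract groups.

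APOA1 (chromosome 11, 116835751 to 116837950, minus strand), the main HDL protein, held 960, 1246 and 1145 CPM in vehicle. In Menthae Herba it held 1386, 1448 and 1415 CPM at 20 µg/mL and 1147, 1187 and 1139 CPM at 500 µg/mL, without overlap. The dose difference was -0.29 ± 0.11 (adjusted p = 0.0364), and with the balance of short and long genes in the model it was -0.11 (adjusted p = 0.363). It was also not called when any 1 of the 6 libraries was left out (adjusted p up to 0.102). The 20 µg/mL group was higher than vehicle by 0.34 ± 0.11 (adjusted p = 0.0481), not called with the balance covariate (0.24, adjusted p = 0.0573) or without either vehicle replicate 1 or 3 or any 1 of its own libraries (adjusted p up to 0.38). Antisense RNA APOA1-AS overlaps its exons. APOA2 (chromosome 1, 161222292 to 161223631, minus strand), the second HDL protein, was called in 0 of 24 comparisons by edgeR and by DESeq2, with 2 at an unadjusted p under 0.05, both against vehicle. Its vehicle libraries held 1898, 1865 and 1739 CPM, and its spread within some groups was wide. In Saengmaek-san at 500 µg/mL they held 1034, 1589 and 1858 CPM and in Okbyeongpung-san at 20 µg/mL 1932, 1861 and 1120 CPM. With the balance in the model APOA2 was higher at 500 than at 20 µg/mL of Menthae Herba by 0.40 (adjusted p = 0.014), against 0.10 ± 0.17 without it (adjusted p = 0.724).

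Of the exchangeable apolipoproteins, APOC3 changed with the dose of Menthae Herba. APOC3 (chromosome 11, 116829706 to 116833072, plus strand) inhibits lipoprotein lipase. It held 49.5, 53.0 and 53.9 CPM in vehicle, 60.8, 61.9 and 66.2 CPM at 20 µg/mL, 56.8, 54.2 and 47.5 CPM at 100 µg/mL and 37.6, 47.6 and 36.9 CPM at 500 µg/mL. The 500 µg/mL libraries were below all libraries of vehicle and of 20 µg/mL. The dose difference was -0.63 ± 0.13 (adjusted p = 0.000207) and with the balance -0.38 (adjusted p = 0.000139), a change of the estimate by more than 1.5 times. The difference from vehicle at 500 µg/mL was -0.36 ± 0.13 (adjusted p = 0.0296), and it was not called without vehicle replicate 2 or 3 or without replicate 1 or 3 of the extract (adjusted p up to 0.139). In Saposhnikoviae Radix (-0.23), Saengmaek-san (-0.29), Guibi-tang (-0.26) and Soyo-san (-0.24) the dose estimates were below 0 and not called, and in Okbyeongpung-san it was 0.28, also not called. With the balance as covariate Guibi-tang (-0.30, adjusted p = 0.00284) and Soyo-san (-0.28, adjusted p = 0.00961) were called.

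APOA4 (chromosome 11, 116820700 to 116823306, minus strand), mainly an intestinal apolipoprotein, was the faintest member, between 1.80 and 3.61 CPM over all libraries. In Menthae Herba it held 2.80, 2.51 and 3.61 CPM at 20 µg/mL and 2.29, 1.88 and 1.80 CPM at 500 µg/mL, a log2 difference of -0.58 ± 0.16 (adjusted p = 0.00282). Without replicate 3 at 20 µg/mL, the highest library of all, the difference was -0.40 (adjusted p = 0.0753). In Soyo-san (-0.38, adjusted p = 0.166) and Guibi-tang (-0.28, adjusted p = 0.334) the doses did not overlap but were not called. The antisense gene AP006216.3 overlaps APOA4.

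APOE (chromosome 19, 44905754 to 44909393, plus strand), the receptor ligand of remnant particles, held 637, 719 and 718 CPM in vehicle. In Menthae Herba it held 731, 743 and 863 CPM at 20 µg/mL and 621, 669 and 593 CPM at 500 µg/mL, without overlap (log2 difference -0.31 ± 0.11, adjusted p = 0.0324). With the balance of short and long genes in the model the difference was -0.11 (adjusted p = 0.337). It was also not called without replicate 1 or 3 at 500 µg/mL or without replicate 3 at 20 µg/mL (adjusted p up to 0.209). Against vehicle APOE was called in 0 of 18 comparisons by edgeR and by DESeq2, with 1 at an unadjusted p under 0.05, and its estimates ran from -0.24 to 0.17. Without replicate 1 of Okbyeongpung-san at 100 µg/mL, that group was called lower than vehicle (-0.39).

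APOC1 (chromosome 19, 44914247 to 44919349, plus strand), which inhibits cholesteryl ester transfer and slows particle uptake, held 70.9, 79.4 and 75.9 CPM in vehicle. At 500 µg/mL it held 94.3, 102.2 and 102.0 CPM in Soyo-san and 95.6, 101.8 and 96.0 CPM in Guibi-tang, in both cases above all vehicle libraries. The difference from vehicle was 0.40 ± 0.13 in Soyo-san (adjusted p = 0.0223) and 0.38 ± 0.13 in Guibi-tang (adjusted p = 0.0465). With the MALAT1 class as covariate they were 0.29 (adjusted p = 0.19) and 0.34 (adjusted p = 0.0714) and were not called; all Soyo-san libraries were in the other class than vehicle. The Guibi-tang call was also lost without any 1 of its 6 libraries (adjusted p up to 0.159), and that in Soyo-san without vehicle replicate 1 or 3 or extract replicate 2 or 3 (adjusted p up to 0.087). Between 20 and 500 µg/mL APOC1 was called in 0 of 6 extracts by edgeR and by DESeq2, with 1 at an unadjusted p under 0.05. The highest estimate was 0.31 ± 0.13 in Soyo-san (adjusted p = 0.161), which was 0.28 with the balance (adjusted p = 0.000837). In Menthae Herba it was 0.05 (adjusted p = 0.809) without and 0.33 (adjusted p = 5.3e-05) with the balance. The same annotated transcript, AC011481.3, overlaps exons of both APOE and APOC1 on their strand.

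APOH (chromosome 17, 66212033 to 66256525, minus strand) was called lower at 500 than at 20 µg/mL in 3 extracts by edgeR's test. Its vehicle libraries held 1077, 1020 and 970 CPM. In Menthae Herba it held 1000, 1011 and 938 CPM at 20 µg/mL, 904, 891 and 800 CPM at 100 µg/mL and 645, 683 and 652 CPM at 500 µg/mL, and the last 3 were the lowest of the series. The dose difference was -0.57 ± 0.080 (adjusted p = 1.1e-07), and -0.43 with the balance of short and long genes (adjusted p = 3.6e-08). In Guibi-tang it went from 1042, 1108 and 1132 CPM to 833, 873 and 891 CPM (-0.34 ± 0.080, adjusted p = 0.00367). In Soyo-san it went from 958, 983 and 1084 CPM to 798, 791 and 854 CPM (-0.31 ± 0.080, adjusted p = 0.00813). The libraries of the 2 doses were separate in all 3 extracts. The Soyo-san call was lost without replicate 1 or 2 at 500 µg/mL or replicate 3 at 20 µg/mL (adjusted p up to 0.0959). Saengmaek-san had an estimate of -0.26 ± 0.080 (adjusted p = 0.0876), Saposhnikoviae Radix -0.12 (adjusted p = 0.857) and Okbyeongpung-san 0.08 (adjusted p = 0.994). The doses of Saengmaek-san did not overlap either. Its difference was called by DESeq2, without the filter on low counts, with the MALAT1 class as covariate and with the replicate block set within each code.

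In comparisons with vehicle, treatment cannot be told apart from sample code, which starts with B1 in all vehicle libraries and in no extract library. Against vehicle at 500 µg/mL, 4 of the 10 genes were called in Menthae Herba (APOM and MTTP higher, APOC3 and APOH lower), where 39.8% of all genes were. In Soyo-san 4 of 10 were called (APOC1, APOM and MTTP higher, APOH lower; 21.5% of all genes). In Guibi-tang 2 were called (APOC1 higher, APOH lower; 13.4%), in Saengmaek-san 2 (APOM and MTTP higher; 12.6%), and MTTP alone was called in Okbyeongpung-san (9.11%) and Saposhnikoviae Radix (5.8%). The APOH difference from vehicle was -0.63 ± 0.080 in Menthae Herba (adjusted p = 9.2e-09), -0.33 ± 0.080 in Soyo-san (adjusted p = 0.00202) and -0.24 ± 0.080 in Guibi-tang (adjusted p = 0.0381). The Guibi-tang value was not called with raw library totals (-0.19, adjusted p = 0.112) or without vehicle replicate 1 or 2 or any 1 of its own libraries (adjusted p up to 0.161). The 10 genes' median difference from vehicle at 500 µg/mL was -0.11 in Menthae Herba, -0.09 in Saposhnikoviae Radix, 0.01 in Saengmaek-san, -0.01 in Guibi-tang, -0.10 in Soyo-san and 0.18 in Okbyeongpung-san, against -0.0057 to 0.0066 over all genes.

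At 100 µg/mL, Menthae Herba had 3 of 10 called (APOM and MTTP higher, APOH lower; 14.0% of all genes) and Saengmaek-san 2 (APOM and MTTP higher; 6.05%). MTTP alone was called, higher, in Saposhnikoviae Radix (5.47%), Soyo-san (8.31%) and Okbyeongpung-san (12.9%). In Guibi-tang 0 of 10 were called (7.95% of all genes), with 3 at an unadjusted p under 0.05 and 2 called by DESeq2. The APOH difference in Menthae Herba, -0.24 ± 0.080 (adjusted p = 0.0357), was not called with raw library totals (-0.18, adjusted p = 0.128) or without vehicle replicate 1 or 2 or any 1 of its own 3 libraries (adjusted p up to 0.204). The MTTP call of Okbyeongpung-san was lost without its replicate 3 (adjusted p = 0.0535), and those of Saposhnikoviae Radix and Saengmaek-san without their replicate 1 (adjusted p up to 0.0822).

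At 20 µg/mL, 2 of 10 were called in Menthae Herba (APOA1 and MTTP, both higher; 6.83% of all genes). MTTP alone was called, higher, in Saposhnikoviae Radix (7.19%), Saengmaek-san (3.37%), Guibi-tang (4.38%) and Soyo-san (3.88%). In Okbyeongpung-san 0 of 10 were called (6.99%), with 2 at an unadjusted p under 0.05 and 1 called by DESeq2; MTTP was 0.16 higher there (adjusted p = 0.0558). The MTTP call was also lost without replicate 2 of the extract in Menthae Herba and in Saposhnikoviae Radix (adjusted p up to 0.109).

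Whether 2 extracts differed in their dose response was tested within pairs that share the first number of their sample codes. APOM and APOH separated the 2 single herbs. The dose difference of APOM was higher in Menthae Herba than in Saposhnikoviae Radix by 0.68 ± 0.14 on the log2 scale (adjusted p = 0.000173), and that of APOH was lower by 0.46 ± 0.11 (adjusted p = 0.00225). These 2 of 10 stand beside 20.0% of all genes. The mean balance of short and long genes went from 0.083 at 20 to -0.114 at 500 µg/mL of Menthae Herba, without overlap. In Saposhnikoviae Radix it went from 0.011 to -0.073. Balance and dose cannot be told apart in Menthae Herba, so the part of the balance in the results of this pair was not tested. For APOA4 the difference was -0.55 ± 0.21 (adjusted p = 0.0622) and for APOC3 -0.41 ± 0.19 (adjusted p = 0.128), so neither passed. APOA4 passed without replicate 1 at 500 or 2 at 20 µg/mL of Menthae Herba, or without replicate 2 at 500 or 1 at 20 µg/mL of Saposhnikoviae Radix (-0.66 at the lowest). Between Saengmaek-san and Guibi-tang, MTTP alone passed, with a difference of 0.34 ± 0.072 (adjusted p = 0.00568; 1.15% of all genes). Between Soyo-san and Okbyeongpung-san 0 of 10 passed (2.36% of all genes), with 3 at an unadjusted p under 0.05 and 1 called by DESeq2. The estimates of that pair were -0.39 ± 0.11 for APOH (adjusted p = 0.0539), -0.52 ± 0.19 for APOC3 (adjusted p = 0.173) and 0.37 ± 0.14 for APOM (adjusted p = 0.191). With the balance as covariate these 3 were -0.34, -0.44 and 0.43 and were called (adjusted p between 0.000502 and 0.00728). APOM was also called without replicate 3 of Okbyeongpung-san at 20 µg/mL, one of the libraries of lowest balance, and APOH without replicate 1 or 2 of that group.

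Soshiho-tang has 1 library per dose, so its values carry no replicate check. MTTP was 90.2, 99.5 and 109.6 CPM at 20, 100 and 500 µg/mL, and the last is the highest MTTP value of the 60 libraries. APOM was 55.1, 49.6 and 66.3 CPM, APOH 943, 811 and 763 CPM, and APOC3 52.4, 40.3 and 41.2 CPM. APOE went from 691 to 515 CPM between 20 and 500 µg/mL, a ratio of 0.745, and APOA1 from 1285 to 1025 CPM, a ratio of 0.797. The balance of short and long genes in these libraries was -0.02, -0.22 and -0.09.

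Across the 18 extract doses, each taken relative to the mean of its extract, the genes of the set fell into more than 1 dose pattern. APOH, APOA1 and APOC3 were alike (Pearson's r of 0.92 for APOA1 with APOH, 0.93 for APOA1 with APOC3 and 0.92 for APOC3 with APOH). APOA2 was most like APOC1 (r = 0.80), APOM went with APOC1 (0.62) and MTTP (0.60) and against APOH (-0.70), and APOB went against APOA2 (-0.68). These are descriptions over 18 group means that share libraries and the balance of short and long genes. Among 9311 other genes with a mean of at least 10 CPM, the pattern of APOH was most like those of ACSF2 (0.98), AAAS (0.98) and ENO3 (0.98), and that of APOM like AMBP (0.97), TGIF1 (0.96) and PIGZ (0.96). APOA1 was most like RBP4 (0.96), PTTG1 (0.94) and ALDH3B1 (0.94), and APOC3 like HDAC3, RBP4 and SUMO2 (each 0.96). Genes like APOC1 included CIB1 (0.92) and UFD1 (0.90). APOE was nearest to CUTA (0.96), GADD45GIP1 (0.94) and RAB5C (0.93), and APOA2 to BABAM1, PRDX5 and DYNLRB1 (each 0.94). APOB was nearest to UBXN7 (0.93), PCNX1 (0.91) and WWC2 (0.91), APOA4 to NIPSNAP2 (0.93), MAL2 (0.90) and ZMYND19 (0.89), and MTTP to RPN1 (0.87), IL17RB (0.86) and UBE2J1 (0.86).

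The other genes of the pathway were counted in 6 lists. Among the other apolipoproteins, 10 of 13 were tested, and 5 changed between 20 and 500 µg/mL of Menthae Herba (3 higher, 2 lower). Of all 16644 genes, 32.1% were called in the same comparison, 8.12% in that of Guibi-tang, 7.58% in that of Soyo-san and 1.96% in that of Saengmaek-san, and every count from the 6 lists stands beside these shares. The lists are described without a test of their own, and nothing is read from them as particular to the pathway. APOL2 rose from 31.7 ± 2.53 to 47.2 ± 2.13 CPM (SD, n = 3; log2 difference 0.58), APOL1, the trypanosome-lysing factor, from 50.6 ± 4.47 to 67.5 ± 0.894 CPM (0.42), and APOA5, which activates triglyceride lipolysis, fell from 27.6 ± 0.809 to 21.4 ± 0.506 CPM (-0.36). In Saengmaek-san 2 were called, APOL1 (0.43) and APOL2 (0.40), both higher, and in Guibi-tang 2, APOL2 (0.27) and APOL6 (-0.39). In Soyo-san, Saposhnikoviae Radix and Okbyeongpung-san 0 of 10 were called by edgeR and by DESeq2, with 4, 1 and 1 at an unadjusted p under 0.05.

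Of 14 genes of lipoprotein assembly and secretion, 8 changed with the dose of Menthae Herba (5 higher, 3 lower), against 32.1% of all genes. DGAT1 and DGAT2, the enzymes of the last step of triglyceride synthesis, fell from 123 ± 5.42 to 66.3 ± 3.78 CPM (-0.89 ± 0.070, adjusted p = 2.4e-15) and from 77.9 ± 3.22 to 49.996 ± 2.28 CPM (-0.64 ± 0.068). SORT1, a sorting receptor that binds APOB, rose from 170 ± 11.7 to 210 ± 2.95 CPM (0.31). In Soyo-san 4 of 14 were called, among them DGAT2 (-0.31), DGAT1 (-0.28) and the sterol esterifying enzyme SOAT2 (0.27). In Guibi-tang 3 were called, DGAT1 (-0.23), SOAT2 (0.22) and CIDEB (-0.22), a lipid droplet protein of particle lipidation. CIDEB (-0.33) was the single call in Saengmaek-san. Both DGAT genes thus fell in Menthae Herba and Soyo-san, and DGAT1 and MTTP both fell in Guibi-tang. MTTP rose in Soyo-san. Its smaller rise in Menthae Herba lost its call with the balance covariate, without the filter or with only the groups compared. It was also lost without replicate 3 at 20 µg/mL.

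Of 11 genes of HDL formation, remodelling and lipase control, 3 changed in Menthae Herba, where 32.1% of all genes did. LCAT, which esterifies cholesterol on HDL, fell from 48.6 ± 4.00 to 33.3 ± 2.01 CPM (-0.55 ± 0.063), and it was the single gene of this list called in Saengmaek-san (-0.26), Guibi-tang (-0.22) and Soyo-san (-0.21). ANGPTL8, an inhibitor of lipoprotein lipase, fell (-0.60) and CETP, the cholesteryl ester transfer protein, rose (0.57, adjusted p = 0.0473) from 0.801 to 1.19 CPM. Of 9 genes of receptors and uptake, 5 changed in Menthae Herba (3 higher, 2 lower; all genes 32.1%), 2 in Guibi-tang (both higher), 1 in Soyo-san and 1 in Saengmaek-san (both lower). VLDLR, a receptor of triglyceride-rich particles, rose in Menthae Herba from 2.26 ± 0.206 to 6.13 ± 0.275 CPM (1.44 ± 0.16). LRP8, an APOE receptor, rose in Guibi-tang (0.32). MYLIP, a ubiquitin ligase named here after its values were seen, fell in Menthae Herba from 4.74 ± 0.514 to 3.67 ± 0.154 CPM (-0.37 ± 0.12).

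Of 24 transcription factors of apolipoprotein genes, 13 changed in Menthae Herba (4 higher, 9 lower), 7 in Soyo-san (2 higher, 5 lower), 3 in Guibi-tang and 1 in Saengmaek-san, beside 32.1%, 7.58%, 8.12% and 1.96% of all genes. NR1H4, the bile acid receptor FXR, fell from 37.7 ± 4.35 to 13.4 ± 0.529 CPM in Menthae Herba (-1.49 ± 0.063, adjusted p = 9.6e-26), and fell in Soyo-san (-0.69), Guibi-tang (-0.40) and Saengmaek-san (-0.27). CEBPA, a factor of hepatocyte differentiation, fell from 172 ± 4.68 to 64.5 ± 6.19 CPM in Menthae Herba (-1.42) and in Soyo-san (-0.58). NR0B2, the corepressor SHP, rose in Menthae Herba (0.78), Soyo-san (0.46) and Guibi-tang (0.26), and PPARGC1A rose in Guibi-tang (0.26). HNF4A, which binds many apolipoprotein promoters, was at 410 ± 31.1 and 366 ± 6.06 CPM at 20 and 500 µg/mL of Menthae Herba (-0.16 ± 0.058, adjusted p = 0.0239). In the other extracts its dose difference was between 0.02 and 0.20, with adjusted p-values from 0.131 to 0.994.

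Of 21 tested genes of other secreted liver proteins, 12 changed in Menthae Herba (5 higher, 7 lower), 13 in Guibi-tang (all lower), 7 in Soyo-san (5 higher, 2 lower) and 5 in Saengmaek-san (all lower). The shares of all genes called were 32.1%, 8.12%, 7.58% and 1.96% in the same order. Haptoglobin (HP) fell in Menthae Herba from 177 ± 4.26 to 109 ± 1.69 CPM (-0.70), as did hemopexin (HPX, -0.82) and antithrombin (SERPINC1, -0.54). In Guibi-tang the fibrinogen chains FGA (-0.39) and FGG (-0.36) and HPX (-0.39) fell, and in Saengmaek-san HPX (-0.46), HP (-0.32) and FGG (-0.30). In Soyo-san SERPINA3 (0.41) and TTR (0.33) rose and HPX (-0.31) fell. The medians of this list were 0.01 in Menthae Herba, -0.20 in Guibi-tang, 0.03 in Soyo-san and -0.11 in Saengmaek-san, against -0.006 to -0.0023 over all genes. In Saposhnikoviae Radix and Okbyeongpung-san 0 genes of these last 5 lists were called by edgeR and by DESeq2. At an unadjusted p under 0.05 the lists held, in the order given, 0, 1, 2, 1 and 5 genes in Saposhnikoviae Radix and 0, 1, 1, 2 and 1 in Okbyeongpung-san.

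The summed level of the leukocyte markers rose with the dose in 4 extracts, and other marker lists also moved. The summed level of 7 leukocyte markers was 1043 to 1206 CPM at 20 µg/mL and 2550 to 2678 CPM at 500 µg/mL of Menthae Herba, 1121 to 1198 and 1810 to 1916 CPM in Soyo-san, and 975 to 1021 CPM in vehicle. In Saengmaek-san it was 1098 to 1203 and 1390 to 1529 CPM, and in Guibi-tang 1117 to 1229 and 1315 to 1336 CPM. Nearly all of it was lysozyme (LYZ, 922 to 2630 CPM), and the defining leukocyte genes PTPRC and CD3E did not exceed 0.0431 CPM in any library. The summed level of 8 fibroblast markers was 15.2 to 16.4 CPM at 20 µg/mL and 25.1 to 25.8 CPM at 500 µg/mL of Menthae Herba, and 13.1 to 14.7 CPM in vehicle. Nearly all of it was PDGFRB (7.28 to 24.7 CPM), and COL1A2, DCN and LUM did not exceed 0.0482 CPM in any library. Between the same doses the fibroblast sum rose in Saengmaek-san, from 15.1 to 16.9 to 17.3 to 18.5 CPM. In Saposhnikoviae Radix it fell, from 13.4 to 14.8 to 11.7 to 12.6 CPM, and in the other replicated extracts the doses overlapped. The endothelial sum fell in Saengmaek-san (5.35 to 5.98, then 4.68 to 4.90 CPM) and Soyo-san (4.74 to 5.36, then 3.84 to 4.72 CPM) and overlapped elsewhere. The hepatocyte list went from between 21830 and 23140 CPM at 20 µg/mL to between 23700 and 24970 CPM at 500 µg/mL of Menthae Herba. In Guibi-tang it went the other way, from between 23100 and 23460 CPM to between 20490 and 20970 CPM. The part of these lists in the results for the extracts was not tested.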

How the data were processed

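mRNA of HepG2 cells was sequenced in 60 libraries. Per the submitters' processing notes, reads were handled with FastQC 0.11.9, Trim Galore 0.6.5, STAR 2.7.3a and RSEM 1.3.3 on hg38, and the authors deposited expected counts per gene. The annotation release and the strand setting of the counting could not be taken from the labels. Expected counts were rounded, and 71.9% of nonzero values were already whole. The edgeR 4.0.16 quasi-likelihood test (R 4.3.3) was fitted to 57 libraries of 19 groups on 16644 genes (filterByExpr, minimum count 10, TMM scaling), with Benjamini-Hochberg adjustment over all genes and a threshold of 0.05. DESeq2 1.42.0 was an alternative. Symbols matched 57055 of 60675 identifiers. Gene positions and lengths are from GENCODE v29. Members and lists were chosen with earlier results of these data known. From each list, the 3 called genes with the highest absolute change and at least 1 CPM were named per extract, and HNF4A throughout; a few genes that these rules name are not reported here. The fit with the balance of short and long genes was added after seeing the data. Counting floors cover counting error only. A wortmannin control that the series text mentions was not analysed here.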

Additional observations from a re-analysis of the deposited data

Results flagged for a closer look

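Differences between extracts in their response to dose were tested directly, and 3 passed the threshold (edgeR's quasi-likelihood test, adjusted over all genes). The dose difference of APOH was -0.4571 on the log2 scale in Menthae Herba relative to Saposhnikoviae Radix, between -0.50 and -0.37 when any 1 library was left out. The dose difference of APOM was 0.684 for the same pair, between 0.62 and 0.79 when any 1 library was left out. The dose difference of MTTP was 0.3393 in Saengmaek-san relative to Guibi-tang, between 0.31 and 0.39 when any 1 library was left out. All 3 stayed past the threshold without any 1 library, with adjusted p-values up to 0.0170 for APOH, 0.0014 for APOM and 0.0282 for MTTP. For APOH and APOM, balance and dose cannot be told apart in Menthae Herba, whose doses did not overlap in the balance of short and long genes. Groups of 3 libraries are too small for the search for single outlying samples.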

How the results depend on the processing

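Of the 43 calls of single members, all 43 were kept with RLE scaling and with DESeq2, which added 7; raw library totals lost 2 and added 8, no filter lost 1 and added 65, the balance covariate lost 5 and added 27, the MALAT1 class lost 3 and added 14, and fits of only the groups compared, which were not run for the tests between extracts, kept 35, lost 5 and added 20. No direction of a called value reversed. Over the 6 extracts, calls between 20 and 500 µg/mL numbered 12, and 24 without a filter. Against vehicle at 500 µg/mL they numbered 14, and 31 without a filter, 22 with the balance and 25 with only the groups compared; at 100 µg/mL 8, and 22 without a filter and 13 with the class; at 20 µg/mL 6, and 19 without a filter and 10 with raw library totals. Leaving out 1 vehicle library gave 4 to 7 calls at 100 µg/mL and 3 to 6 at 20 µg/mL. Leaving out 1 library of the groups compared gave 3 to 6 in Menthae Herba between doses. Against vehicle at 500 µg/mL it gave 1 to 3 in Saengmaek-san and 0 to 1 in Guibi-tang. The test of Soyo-san against Okbyeongpung-san then gave 0 to 1. Without a filter, calls between doses numbered 1 in Saposhnikoviae Radix, 3 in Saengmaek-san, 7 in Guibi-tang, 6 in Soyo-san and 1 in Okbyeongpung-san; calls against vehicle at 500 µg/mL numbered 3, 5, 5, 7 and 5 in the same order; tests between extracts gave 4, 4 and 3. With the balance, calls between doses numbered 1 in Saengmaek-san, 5 in Soyo-san and 1 in Okbyeongpung-san, calls against vehicle 2 in Saposhnikoviae Radix and 7 in Soyo-san, and tests between extracts 2 for Saengmaek-san against Guibi-tang and 3 for Soyo-san against Okbyeongpung-san. With the class, 1 was called between doses in Saposhnikoviae Radix and in Saengmaek-san, 1 against vehicle in Guibi-tang, 2 in Okbyeongpung-san, and 1 for Soyo-san against Okbyeongpung-san. With only the groups compared, 4 were called between doses in Guibi-tang and, against vehicle at 500 µg/mL, 7 in Menthae Herba, 1 in Saengmaek-san, 5 in Guibi-tang and 5 in Okbyeongpung-san. Raw library totals gave 1 against vehicle in Guibi-tang and 2 in Okbyeongpung-san. DESeq2 gave 1 between doses in Saposhnikoviae Radix and in Saengmaek-san and 1 for Soyo-san against Okbyeongpung-san. The cause of these shifts was not tested. The counts under other settings stand without the share of all genes called in the same setting. Nothing is therefore read from them as particular to the 10 genes.

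Replicate numbers are shared across groups, but same-numbered libraries of 1 code deviated together with r from -0.537 to 0.753 (median 0.101, 135 pairs), so the number was not taken as a pairing. With the replicate block, calls numbered 12 between doses and 13 against vehicle at 500 µg/mL, with 1 in Guibi-tang, where APOC1 was lost. With the replicate block set within each code, 1 was called between doses in Saposhnikoviae Radix and in Saengmaek-san and 1 for Soyo-san against Okbyeongpung-san. The faint APOA4, with 4073 counts over all libraries, is the member that depth limits most.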
